A study of Drosophila melanogaster and Drosophila simulans and Drosophila sechellia with 48 samples.

Results

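The early pupal-peak autosomal genes are 108 genes, of 1903 named genes measured on every array of 3 Drosophila species, whose transcript was most abundant in whole males shortly after puparium formation. The rule averaged the group means of the 3 species (D. melanogaster, D. simulans, D. sechellia) within each of 4 stages and kept a gene where the early pupal value exceeded every other stage by at least 0.5 on the log2 scale. This difference to the next highest stage is called the lead. Of 130 genes with such a lead, 17 on the X and 5 with symbols left out by name (CG3355, CG5171, Ctl2, Eig71Ed and bwa) were set aside. The remaining 108 were drawn from 1579 eligible autosomal genes, of which 70 led by as much in larvae, 48 in late pupae and 123 in adults.

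The samples were pools of 25 males of D. melanogaster (strain 14021-0231.00), D. simulans (strain 14021-0251.2), D. sechellia (Cousin Island) and the F1 hybrids of D. simulans females and D. sechellia males. Males were collected as larvae 96 h after larval emergence, as early pupae, as late pupae 72 h after puparium formation and as adults 1.5 h after eclosion. The labels put the early pupal collection at 4 h after puparium formation and the methods at 2 h. Each stage of a pure species was 1 pool on 3 technical arrays. By the methods each hybrid stage was 3 separate pools, 1 per array, which gave 48 arrays in 16 groups. Hybrid adult arrays 1 and 2 shared noise between duplicate spots (r = 0.61) and were counted as 1 unit in the tests. Each value is a log2 ratio of the sample to a reference of mixed-stage D. melanogaster males, on arrays of D. melanogaster cDNA, so a level says nothing of abundance between genes, and the level of another species can carry a bias from its sequence.

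Puparium formation follows a pulse of the steroid hormone ecdysone at the end of larval life. In the hours around it the larval midgut begins to be dismantled by autophagy and proteolysis, while the imaginal discs evert and change shape to build the adult body. Adult muscle and cuticle are formed later in the pupal period.

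The early pupal-peak genes were described in the 3 species by the values that chose them, so their height there is a description only. Their lead ran from 0.51 to 2.50 with a median of 0.76, and 27 genes led by 1 or more. The median early pupal level was 1.27 for D. sechellia, 1.05 for D. simulans and 1.00 for D. melanogaster, while the medians of the same genes at the other stages lay between -0.27 and 0.22. The next highest stage was larval for 48 genes, adult for 32 and late pupal for 28. In 95 genes the early pupal level was the highest in all 3 species and in 13 it was the highest in 2 of 3. A lead of at least 0.5 within every species taken alone was held by 36 genes. Species by species it was held by 88 for D. sechellia, 78 for D. simulans and 57 for D. melanogaster. Just inside the threshold lay Tmtc3 (lead 0.5115), Cul5 (0.5112) and Cyp301a1 (0.5068), and just outside it CG4612 (0.4985), pAbp (0.4962) and PlexA (0.4931).

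**Figure D1:**
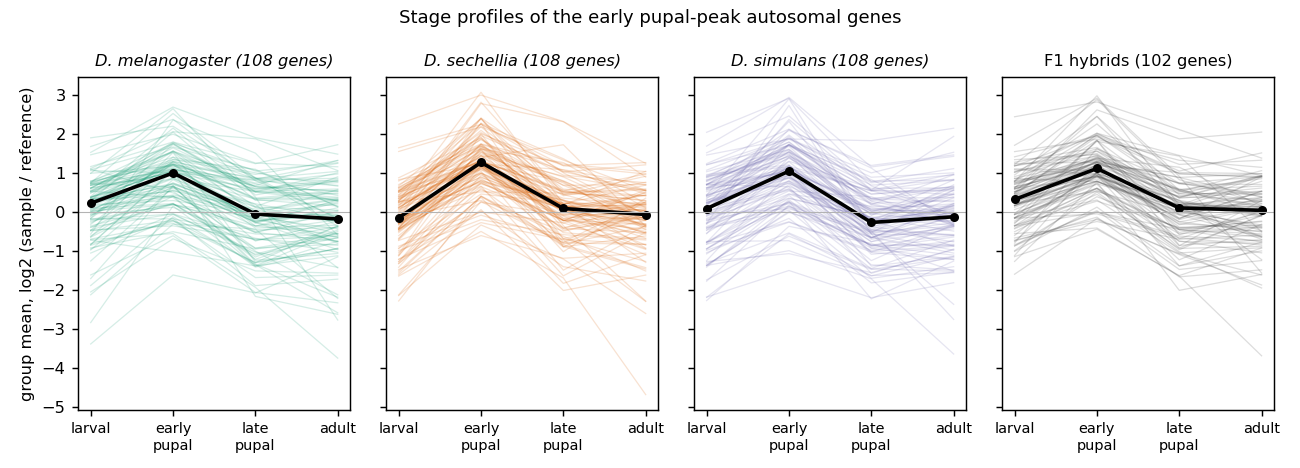
Group means of each member (thin lines, log2 of sample over reference) at the 4 stages in the 3 species (108 genes, chosen on these values) and the F1 hybrids (102 genes, not used in the choice). The thick line is the median over members, which stands in early pupae at 1.27 for D. sechellia, 1.05 for D. simulans, 1.00 for D. melanogaster and 1.12 for the hybrids.

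The members lay on every autosome, at 5.96% to 8% of the eligible genes of each arm. Chromosome arm 2L held 22 of 354 eligible genes, 2R 29 of 379, 3L 22 of 369, 3R 33 of 452 and chromosome 4 held 2 of 25, the Hedgehog effector ci and the TFIID subunit gene Taf3. Neighbouring protein-coding members were few. Sh3beta, akirin and SMSr lay next to each other on 3L, and Rassf lay beside CenB1A on 3R. The symbol in use was CG and a number for 37 of the 108, among them CG5835, CG10853 and CG17834.

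The hybrids did not enter the rule, so the question of whether the same genes peak in early pupae could be put to them. Of the 108 members, 102 were measured in the hybrids, and Rgk1, Galphai, Sec8, Sap-r, fok and Bhmt were not. The hybrid level was highest in early pupae for 99 of the 102, and the median hybrid level was 1.12 in early pupae against 0.32 in larvae, 0.10 in late pupae and 0.04 in adults. Of the 1596 other genes measured in the hybrids, 391 were highest in early pupae, which is 24.5%. The hybrid lead was at least 0.5 in 66 members and in 55 of the other genes.

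Before these contrasts were tested, 1 hybrid pool stood apart. Larval replicate 1 correlated with larval replicates 2 and 3 at r = 0.77 and 0.78 over all genes, while those correlated with each other at 0.92. With the mean of the hybrid early pupae it correlated at r = 0.79, against 0.58 and 0.63 for larval replicates 2 and 3, and the order was the same over genes that are not members (0.80, 0.60 and 0.65). The median member stood at 0.63 in larval replicate 1 and at 0.16 and 0.14 in replicates 2 and 3. Why this pool differed was not tested, and the counts over larvae, as well as the named differences to larvae whose call it changed, are also given without it. Muscle genes were at their lowest where the members were highest, with a list median of -2.67 in early pupae of the species against 0.62 in larvae, -0.35 in late pupae and 0.15 in adults. In the hybrids 11 of 12 measured muscle genes were lower in early pupae than in larvae, 11 of 12 than in late pupae and 12 of 12 than in adults, where 10.6%, 18% and 16.1% of all genes were lower. In whole animals a smaller share of a tissue and less RNA per cell cannot be told apart, and what this shift contributes to the members' values was not tested.

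**Figure D2:**
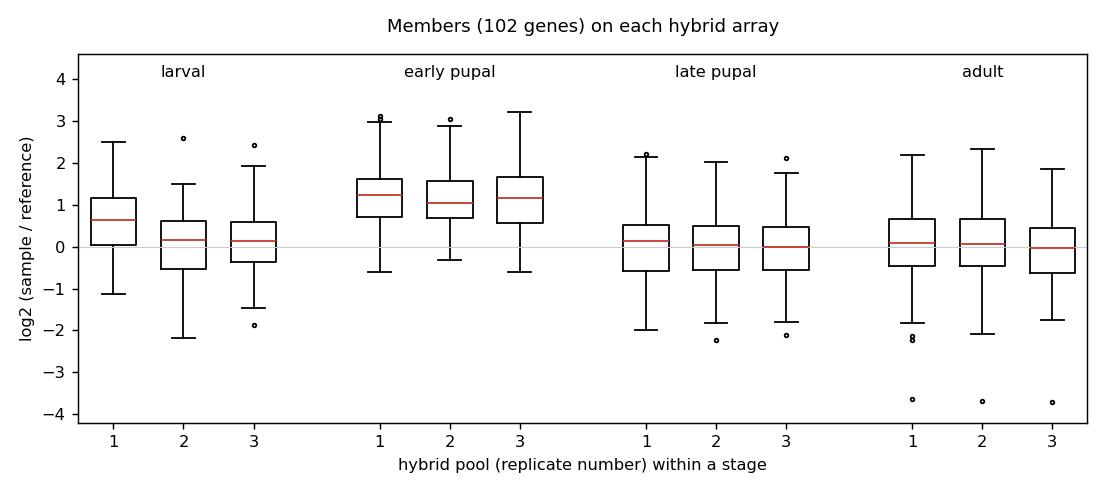
Levels of the 102 members on each of the 12 hybrid arrays (boxes, median in red, whiskers to 1.5 interquartile ranges). The early pupal medians lie at 1.22, 1.03 and 1.17, and larval replicate 1 (0.63) lies above larval replicates 2 and 3 (0.16 and 0.14).

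In hybrid early pupae 53 of 102 members were higher than in larvae, where 9.25% of the 1698 genes tested were, at an adjusted p under 0.05 and at least 1.5-fold (limma, Benjamini-Hochberg over all genes). Against late pupae 85 members were higher, with 20.3% of all genes, and against adults 72 members, with 18.6%. No member was called lower in any of the 3 contrasts (limma), and at an unadjusted p under 0.05 the count lower was also 0 in each. The median difference of the members was 0.78 against larvae, 1.02 against late pupae and 1.10 against adults, beside medians over all genes of 0.02, 0.01 and -0.02. Higher than all 3 other stages were 41 members, with 3.83% of all genes, 35 passed in 2 contrasts, 17 in 1 and 9 in none. Without larval replicate 1 the count against larvae was 79, with 15.8% of all genes, and 57 members were higher than all 3 stages, with 5.89%. For 58 of the 102 members all 3 early pupal arrays lay above all 9 other hybrid arrays, with 7.83% of all genes.

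**Figure D3:**
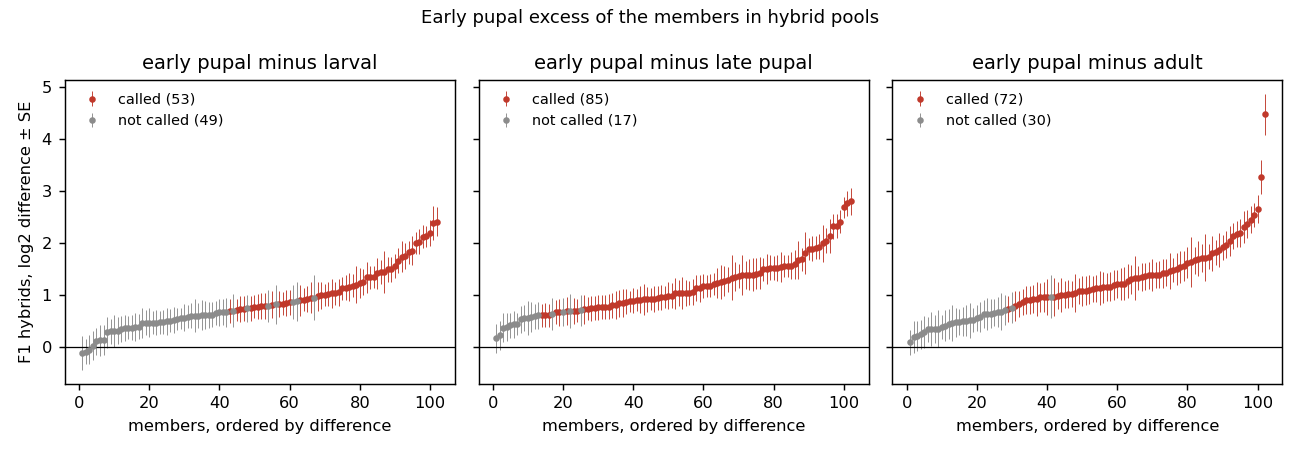
Differences between early pupae and each other stage in the F1 hybrids for the 102 members, ordered by size (points, log2 difference from the limma model; bars, 1 SE; red, called). All 102 members lie above 0 against late pupae and adults and 99 against larvae.

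Over the 102 members the lead in the species and the lead in the hybrids correlated at r = 0.70 (Spearman's rho 0.59), a description across genes that share the same arrays and reference and are not independent replicates. The 26 members with a lead of 1 or more in the species had a median hybrid lead of 1.15, and 20 of them were called over all 3 stages. The 76 with a smaller lead had a median of 0.55, and 21 of them were called over all 3 stages. The next highest stage was the same in species and hybrids for 59 of the 102. The hybrids had it in larvae for 57 members, in adults for 28 and in late pupae for 17.

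**Figure D4:**
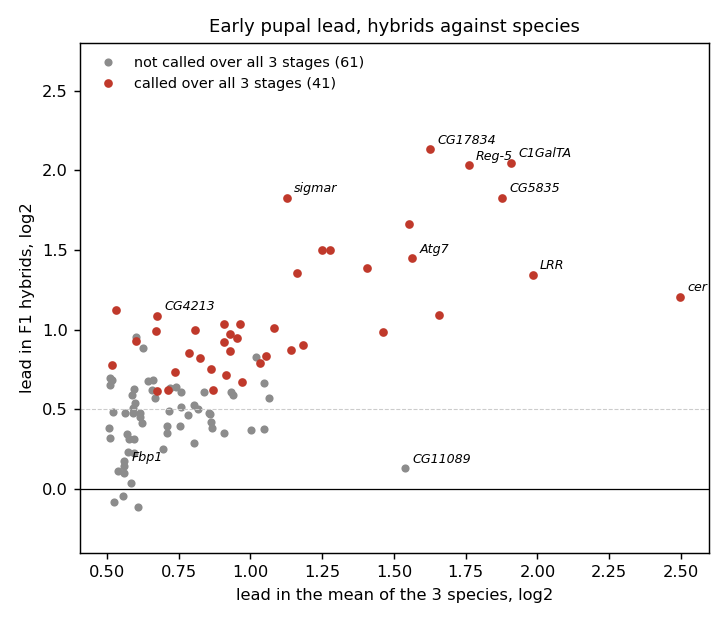
Early pupal lead of the 102 members in the mean of the 3 species (x axis, used in the choice) and in the F1 hybrids (y axis, not used), both in log2 units. The 41 members called over all 3 stages are red, the dashed line marks a hybrid lead of 0.5, and CG11089 has a lead of 1.54 in the species and 0.13 in the hybrids.

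Counts for the functional groups that follow stand beside 53, 85 and 72 of all 102 members over larvae, late pupae and adults. Over all 3 stages 41 of the 102 were called. Counts for the gene lists stand beside 9.25%, 20.3% and 18.6% of all genes higher and 10.6%, 18% and 16.1% lower, in the same order. Genes of proteolysis, autophagy and the lysosome numbered 5, with leads from 0.55 to 2.50. These were cer (crammer, an inhibitor of cathepsin-like cysteine proteinases), Atg7 (the E1-like enzyme that activates the ubiquitin-like proteins of autophagy), sigmar (required for autophagy in dying salivary glands), Dip-B (a dipeptidase) and Sap-r (a lysosomal saposin precursor). All 4 of these measured in the hybrids were higher in early pupae than at every other stage. On the hybrid arrays sigmar stood at 0.58, 0.69 and 0.58 in larvae, 2.28, 2.26 and 2.81 in early pupae, 0.71, 0.52 and 0.45 in late pupae and 0.46, 0.45 and 0.09 in adults. The early pupal arrays overlapped with none of the others, and the difference was 1.83 ± 0.22 (SE) to larvae, 1.89 ± 0.22 to late pupae and 2.18 ± 0.24 to adults (limma, adjusted p = 1.0e-05, 3.7e-06 and 2.7e-06).

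cer had the largest lead of all, 2.50 in the species, where the early pupal arrays read 1.90 to 2.94 in D. sechellia, 2.32 to 3.15 in D. simulans and 2.53 to 2.76 in D. melanogaster. The adult arrays of the 3 species read between -2.86 and -2.07. In the hybrids the early pupal pools stood at 3.10, 2.87 and 2.78, the larval pools at 2.49, 0.71 and 1.93, the late pupal pools at 1.53, 0.75 and 0.46 and the adult arrays at -1.37, -1.39 and -1.74. The larval pools were thus far apart from each other, and the difference to larvae was 1.21 ± 0.36 (limma, adjusted p = 0.023) beside 4.48 ± 0.40 to adults (adjusted p = 2.4e-07).

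For Atg7 the larval pools were farther apart still, at 2.14 in replicate 1 and at 0.00 and 0.28 in the others, with early pupae at 2.55, 2.14 and 2.07. The early pupal difference to larvae was 1.45 ± 0.40 (limma, adjusted p = 0.016) and 2.12 without larval replicate 1 (adjusted p = 4.9e-06). Late pupae read 0.82, 0.50 and -0.02 and adults 0.68, 0.70 and 0.38, which do not overlap with early pupae. In the species the early pupal arrays read 2.75 to 2.89 in D. sechellia, 1.21 to 1.69 in D. simulans and 2.11 to 2.18 in D. melanogaster. Atg7 was the 1 member among 16 measured genes of the autophagy and lysosome list, which holds the Atg genes, lysosomal membrane proteins and subunits of the vacuolar proton pump. Of 15 measured in the hybrids, 2 were higher and 5 lower in early pupae than in larvae, 3 higher and 0 lower than in late pupae, and 1 higher and 7 lower than in adults. The median of the list in early pupae of the species was 0.30, below its larval (0.50) and adult (0.55) medians.

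**Figure D5:**
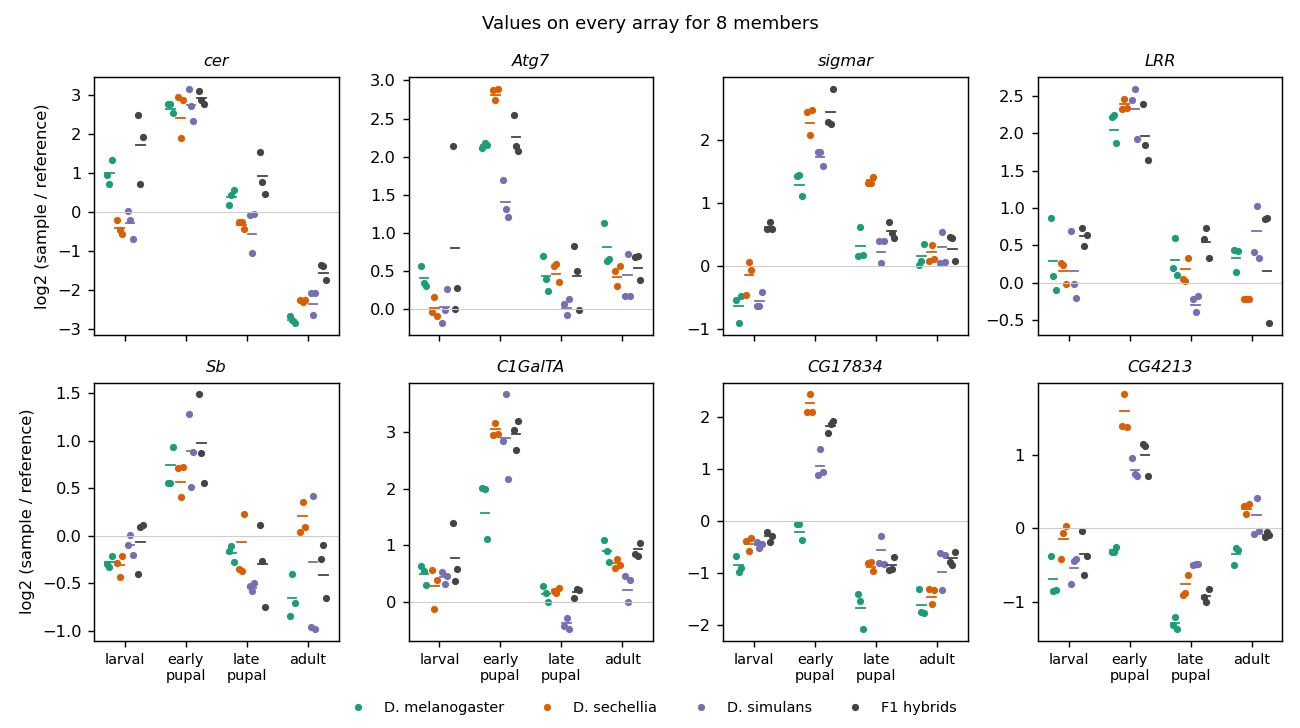
Level of 8 members on every array (points, log2 of sample over reference) with the group mean (bar), by stage and by species or hybrid. In cer and Atg7 hybrid larval replicate 1 (2.49 and 2.14) lies near the early pupal arrays, and in CG17834 and CG4213 the early pupal arrays of D. melanogaster lie below those of the other groups.

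Genes of cell shape, adhesion and GTPase signalling numbered 12, with LRR, Rgk1 and Sb at their head by lead. Of the 10 measured in the hybrids 6 were higher in early pupae than in larvae, 7 than in late pupae and 6 than in adults, and 2 (LRR and Sb) than in all 3. Without larval replicate 1 all 10 were higher than in larvae, beside 79 of all 102 members. LRR is the fly relative of CARMIL, which in other animals binds actin capping protein. Its hybrid arrays read 0.73, 0.49 and 0.64 in larvae, 2.40, 1.85 and 1.64 in early pupae, 0.58, 0.72 and 0.33 in late pupae and 0.85, 0.87 and -0.55 in adults. The early pupal arrays were above every other one, by 1.34 ± 0.30 over larvae and 1.81 ± 0.34 over adults (limma, adjusted p = 0.0036 and 5.2e-04).

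Sb (Stubble) encodes a transmembrane serine protease needed for disc eversion and bristle shape, and was the 1 member among 11 measured genes of the actin, myosin and junction list. Its hybrid early pupal pools read 1.49, 0.87 and 0.56, a wide spread, but above the larval (-0.40, 0.09 and 0.11), late pupal (0.12, -0.26 and -0.75) and adult (-0.25, -0.10 and -0.66) arrays. The differences were 1.04 ± 0.28, 1.27 ± 0.28 and 1.39 ± 0.31 (limma, adjusted p = 0.014, 0.0019 and 0.0027). Of 9 genes of that list measured in the hybrids, 1 (Sb) was higher and 1 lower in early pupae than in larvae, 4 higher and 1 lower than in late pupae, and 3 higher and 1 lower than in adults.

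The small GTPase gene Rgk1 had the second largest lead, 2.26, and was not measured in the hybrids. Its early pupal arrays read 1.74 to 2.25 in D. sechellia, 0.79 to 1.13 in D. simulans and 0.59 to 0.76 in D. melanogaster, while every array of the other stages was at -0.66 or lower. cta, the G protein alpha subunit that drives apical constriction in the embryo, read 1.65, 1.30 and 1.54 in hybrid early pupae and 2.07, 1.05 and 0.42 in larvae, which overlap. Its difference was 0.31 ± 0.31 to larvae (limma, adjusted p = 0.56), which was 0.76 and called without larval replicate 1 (adjusted p = 0.021), and 1.42 ± 0.31 to late pupae (adjusted p = 0.0016). Of the cell adhesion gene ed and the kinase gene Pak3, ed was higher in early pupae than in larvae (1.14 ± 0.24) and adults and Pak3 than in larvae (0.85 ± 0.25) and late pupae.

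Membrane traffic, lipid and glycosylation genes numbered 7, and 4 of the 6 measured in the hybrids were higher in early pupae than at all 3 other stages. C1GalTA, which adds galactose to mucin-type O-glycans, read 3.05, 2.68 and 3.20 in hybrid early pupae. It read 1.39, 0.37 and 0.58 in larvae, 0.07, 0.23 and 0.21 in late pupae and 0.84, 0.80 and 1.03 in adults. No other array came near the early pupal ones, and the differences were 2.20 ± 0.26, 2.81 ± 0.26 and 2.05 ± 0.29 (limma, adjusted p = 8.1e-06, 1.7e-07 and 3.2e-05). CG8112, listed under the synonym ACAT, Syb, a vesicle SNARE, and SMSr, a relative of sphingomyelin synthase, also passed over all 3 stages, with differences to larvae of 1.50 ± 0.23, 0.71 ± 0.21 and 0.93 ± 0.25. Sply, the sphingosine phosphate lyase, was 1.89 ± 0.24 above late pupae and 2.21 ± 0.27 above adults but 0.40 ± 0.24 above larvae (limma, adjusted p = 1.1e-05, 8.0e-06 and 0.30). Snx3, a sorting nexin, passed in none.

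Transcription and chromatin genes numbered 10, and none was called over larvae (limma), where the median difference was 0.50 and 5 of the 10 had an unadjusted p under 0.05. A t-test on the hybrid pools called 0 of the 10 over larvae with p multiplied by 6 and 0 with Benjamini-Hochberg adjustment. The methods ran their t-tests on replicate spots, so these are not the calls of the authors. By limma 7 were higher than in late pupae and 4 than in adults. Without larval replicate 1 the count over larvae was 6. The zinc finger gene tsh read 1.76, 0.97 and 1.09 in hybrid larvae and 1.61, 1.54 and 1.81 in early pupae, so that replicate 1 overlapped with early pupae and the others did not. The difference to larvae was 0.38 ± 0.24 (limma, adjusted p = 0.32) and 0.62 without replicate 1 (adjusted p = 0.041). It fell to 0.49, 0.48 and 0.08 in late pupae, a difference of 1.30 ± 0.24 (limma, adjusted p = 3.7e-04). ci, the transcription factor of the Hedgehog pathway, read 0.58, -0.33 and -0.45 in larvae and 0.66, 0.63 and 0.54 in early pupae, 0.67 ± 0.25 apart (adjusted p = 0.073), and 1.00 apart without larval replicate 1 (adjusted p = 0.0016). It was the 1 member of 13 measured signalling genes. Of 12 of these in the hybrids none was higher in early pupae than in larvae, 4 than in late pupae and 1 than in adults, and none was lower (limma). The dorsal wing selector ap, the Polycomb group gene escl, the corepressor gene sbb and jim, a zinc finger gene, were each called over late pupae, by 0.67, 0.85, 0.70 and 0.76. Atf6, a transcription factor of the unfolded protein response, was called in none of the 3 contrasts, but over larvae without larval replicate 1 (0.66, adjusted p = 0.036). ap and escl were also called over larvae without that pool, by 0.81 and 0.94.

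Of 5 RNA processing genes, Sf3b6, a subunit of the spliceosomal U2 particle, and Ythdf, a reader of methylated adenosine, were higher in hybrid early pupae than at every other stage. Sf3b6 read 0.59, 0.56 and 0.38 in early pupae, -0.98, -1.30 and -0.69 in larvae, -1.41, -0.69 and -0.95 in late pupae and -2.22, -2.07 and -1.74 in adults. Every early pupal array was above 0 and every other one below it, and the difference to larvae was 1.50 ± 0.24 (limma, adjusted p = 2.2e-04). Hrb27C, an hnRNP protein, was 0.47 ± 0.24 above larvae (adjusted p = 0.20, and 0.68 with 0.040 without larval replicate 1), 0.88 ± 0.24 above late pupae and 1.42 ± 0.27 above adults. Sf3b6 and Hrb27C were the 2 members of 11 measured genes of the splicing list, of which 2 were higher in hybrid early pupae than in larvae, 6 than in late pupae and 6 than in adults, and none lower.

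Among 9 cell cycle and signalling components, Rassf, Ccm3 and Mob4 encode proteins that act with or belong to the striatin-interacting phosphatase and kinase complex, which restrains Hippo signalling. Rassf and Mob4 were higher in hybrid early pupae than at all 3 other stages, and Ccm3 than in late pupae and adults. Rassf read 1.95, 1.88 and 2.23 in early pupae against 1.50, 0.31 and 0.54 in larvae, with no overlap, a difference of 1.23 ± 0.29 (limma, adjusted p = 0.0059). Mob4 was 0.73 ± 0.25 above larvae (adjusted p = 0.049) and Ccm3 0.48 ± 0.24 (adjusted p = 0.20). Eip63E, an ecdysone-induced kinase gene, was the 1 member of 3 measured genes of the ecdysone list, of which 1 was higher and none lower in hybrid early pupae than in larvae, 1 higher and 1 lower than in late pupae, and none higher and 1 lower than in adults. Its early pupal pools read 1.14, 1.39 and 1.37, above larvae (0.61, 0.09 and 0.17) and late pupae (0.27, 0.45 and 0.38) and nearer to adults (0.81, 0.88 and 0.97). It passed over larvae (1.01 ± 0.21) and late pupae (0.93 ± 0.21) and not over adults (0.39 ± 0.24, limma, adjusted p = 0.20). grp, the Chk1 checkpoint kinase gene, was 1.22 ± 0.21 above late pupae and 1.49 ± 0.24 above adults, and called over larvae as well without larval replicate 1 (0.64, limma, adjusted p = 0.037). The gene thr, which encodes a part of the separase system, was called over late pupae and adults.

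Of 5 genes of the ubiquitin pathway, Nedd4, a HECT ubiquitin ligase gene, was higher in early pupae than at all 3 other stages, by 1.06 ± 0.26, 0.99 ± 0.26 and 1.20 ± 0.29 (limma, adjusted p = 0.00795, 0.00675 and 0.00485). Nedd4 read 0.40, 0.38 and 0.88 in hybrid early pupae, and the other hybrid arrays read between -0.86 and 0.03. Cul5, a cullin gene, passed in none. It was the 1 member of 12 measured genes of the ubiquitin and folding list, of which 3 were higher and none lower in hybrid early pupae than in larvae, 4 higher and 2 lower than in late pupae, and 3 higher and 1 lower than in adults.

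Metabolic enzymes and carriers numbered 8, and of the 7 measured in the hybrids 4 were higher in early pupae than in larvae, 6 than in late pupae and 6 than in adults. NT5E-2, a 5'-nucleotidase gene, and Gs1, the mitochondrial glutamine synthetase gene, passed over all 3 stages, by 1.36 ± 0.21 and 0.92 ± 0.23 over larvae, as did Enoph of the methionine salvage pathway (0.82 ± 0.25). Without larval replicate 1 the Enoph difference was 0.61 (limma, adjusted p = 0.071). dmGlut, a glutamate transporter gene, was higher than in late pupae (0.71 ± 0.22) and adults (1.44 ± 0.25). Cyp301a1, a cytochrome P450 gene of adult cuticle formation and the member with the smallest lead, was 1.86 ± 0.28 above larvae and 2.32 ± 0.31 above adults but 0.38 ± 0.28 above late pupae (adjusted p = 0.29).

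CG11089, listed under the synonym atic, was the member whose hybrids departed most from its lead of 1.54. D. sechellia larvae read -0.72, -1.36 and -1.30 and D. simulans larvae -1.39, -1.91 and -2.01, whereas D. melanogaster larvae read 0.67, 0.66 and 0.86 and the hybrid larvae 1.75, 0.47 and 1.80. The hybrid larval pools were above every larval array of both parents, and replicates 1 and 3 were also above the hybrid early pupae at 1.46, 1.58 and 1.38. The early pupal difference was 0.13 ± 0.29 to larvae (limma, adjusted p = 0.84) and 1.54 ± 0.29 to late pupae (adjusted p = 5.0e-04).

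Genes known from single tissues were few. atilla, a marker of lamellocytes among the blood cells, read -0.19, 0.10 and 0.19 in hybrid early pupae and -0.04, -1.38 and -1.19 in larvae, so replicate 1 overlapped. The difference was 0.90 ± 0.30 (limma, adjusted p = 0.038). None of the 6 measured genes of the blood cell and immunity list was a member, and none was higher in hybrid early pupae than at another stage. fax, a gene of axon growth, read -0.36, 0.10 and -0.24 in hybrid early pupae and -2.14, -2.01 and -1.66 in adults, and passed over all 3 stages. It was the 1 member of 10 measured neuronal and glial genes. Of 7 of these in the hybrids 2 were higher and 1 lower in early pupae than in larvae, 2 higher and 2 lower than in late pupae, and 2 higher and 4 lower than in adults. Fbp1, the fat body receptor of larval serum proteins, read alike in larvae (-0.04, -0.81 and -0.81) and early pupae (-0.59, -0.03 and -0.60) and far lower in adults (-3.63, -3.68 and -3.71). Its differences were 0.14 ± 0.29 to larvae and 3.27 ± 0.33 to adults (limma, adjusted p = 0.82 and 7.7e-07). It was the 1 member of 5 measured genes of the fat body list, whose other genes were Fbp2, Glt, LpR1 and LpR2. Of these 5 none was called against larvae, and 2 were higher and 2 lower in hybrid early pupae than in late pupae, as against adults.

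Among the genes in no functional group, CG5835, Reg-5 (rhythmically expressed gene 5), CG17834, CG7059, CG14687 and CG5758 differed by 2.00 or more from hybrid larvae. CG5835 read 1.66, 1.99 and 1.85 in hybrid early pupae and between -0.62 and 0.14 on all other hybrid arrays. Reg-5 read 0.56, 1.13 and 0.60 in early pupae and -0.98 or lower on all others, with differences of 2.03 ± 0.24, 2.77 ± 0.24 and 2.36 ± 0.27 (limma, adjusted p = 9.1e-06, 1.0e-07 and 3.1e-06). Of the 20 members with the largest lead, Rgk1 was not measured in the hybrids, CG11089 was not called over larvae, and the other 18 were called over all 3 stages. These also comprise CG10853, CG4455, Sh3beta, CG7059 and CG9801, whose hybrid leads were 1.09, 1.66, 0.98, 1.39 and 1.01. The 3 members whose hybrid level was highest in larvae, not early pupae, were Pcif1, CG31368 and the deubiquitinase gene Usp10. Their early pupal levels lay 0.11 (Pcif1), 0.08 (CG31368) and 0.04 (Usp10) below the larval ones, less than the SE of each difference. Without larval replicate 1 all 3 were above the larval level.

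The species were compared with each other, although the group means compared are those whose mean entered the rule. A species with a wider spread of values weighs more in that mean, and what the choice contributes to the differences between species was not tested. With 1 pool per species and stage the spread was taken from the hybrid pools. In early pupae 2 of 108 members were called in any of the 3 pairs of species, with 0.736% of all 1903 genes, and both were lower in D. melanogaster than in D. sechellia. In larvae none was called (0% of all genes), in late pupae none (0.263%) and in adults none (0.368%), by limma. At an unadjusted p under 0.05 members made up 5.56% to 9.26% per pair in larvae, beside 2.68% to 15.1% of all genes. In early pupae they made up 7.41% to 21.3%, beside 6.73% to 12.5%, in late pupae 11.1% to 18.5%, beside 10.9% to 15.1%, and in adults 5.56% to 12%, beside 5.89% to 12.7%. Pair by pair the members' shares lay near those of all genes in adults, but not in each pair at the other stages. Between D. sechellia and D. simulans they were 18.5% beside 10.9% in late pupae and 5.56% beside 2.68% in larvae. Between D. melanogaster and D. sechellia the larval share was the lower one, 9.26% beside 15.1%.

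CG17834 read 2.10, 2.44 and 2.11 for D. sechellia early pupae, 0.88, 1.38 and 0.94 for D. simulans and -0.05, -0.06 and -0.37 for D. melanogaster, with the hybrids at 1.71, 1.87 and 1.93. The 3 species did not overlap, and the hybrids lay between the parents. The difference between D. melanogaster and D. sechellia was -2.49 ± 0.35 (limma, adjusted p = 0.0027). At the other stages the same 2 species differed less, with larvae at -0.67, -0.98 and -0.91 against -0.40, -0.58 and -0.33. CG4213 read 1.38, 1.82 and 1.37 for D. sechellia early pupae, 0.95, 0.73 and 0.70 for D. simulans, -0.32, -0.32 and -0.26 for D. melanogaster and 1.15, 1.12 and 0.70 in the hybrids. D. melanogaster was below all other groups, by 1.89 ± 0.38 on the log2 scale from D. sechellia (limma, adjusted p = 0.036), and its own lead was 0.06 beside 1.34 in D. sechellia. Without larval replicate 1 of the hybrids, which sets part of the spread, 6 members were called in early pupae, namely these and C1GalTA, CG5758, CG9393 and cta, with 2.79% of all genes. Likewise 4 were then called in larvae (2.26% of all genes), 10 in late pupae (6.73%) and 3 in adults (2.68%).

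Whether the peak itself was of unequal height was tested as the early pupal excess, the early pupal level minus the mean of the other 3 stages, in which a bias that is the same at every stage cancels. The median excess of the members was 1.32 for D. sechellia, 1.13 for D. simulans, 0.99 in the hybrids and 0.87 for D. melanogaster, and it was larger in D. sechellia than in D. melanogaster for 86 of 108 members (79.6%), beside 52.1% of all genes. No single member passed in any of the 3 pairs (limma), with 0.105% of all genes, and 3.7% to 10.2% of the members per pair had an unadjusted p under 0.05, beside 2.73% to 3.68% of all genes. The stage means of the species also entered the choice of the members, and all genes were not chosen in this way. A lead of at least 0.5 was held by 88 members in D. sechellia and by 57 in D. melanogaster. What the choice contributes to these medians and shares was not tested. The smallest adjusted p of those named was that of CG17834, whose excess was 2.03 ± 0.40 lower in D. melanogaster than in D. sechellia (adjusted p = 0.084). Without hybrid larval replicate 1 it was called (adjusted p = 0.026), with 0.315% of all genes. The arrays of D. sechellia early pupae also had the wider spread, with an SD over elements of 1.12 to 1.13 against 1.01 to 1.02 in D. melanogaster. With every array scaled to the same SD the median excesses were 1.18 for D. sechellia, 1.09 for D. simulans and 0.85 for D. melanogaster, and whether the spread contributes was not tested further.

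The hybrids were set beside their parents as a description only, since the parents entered the rule. In early pupae the median member differed from the mean of D. sechellia and D. simulans by 0.04, beside -0.07 for all genes. Between the parents lay 49 of 102 members, with 25 above both and 28 below both. Of all 1698 genes 351 were above both parents and 617 below both. In larvae the median difference was 0.32, and 65 of 102 members were above both parents, beside -0.05 and 535 of 1698 for all genes. By pool the larval median difference was 0.70 in replicate 1 and 0.18 in replicates 2 and 3, and without replicate 1 it was 0.12 with 50 members above both parents. In late pupae and adults the medians were 0.05 and 0.15. Above both parents were 21.6% and 42.2% of the members there, close to 20% and 38.6% of all genes. The parents entered the choice of these genes and the hybrids did not, and what this contributes to the differences was not tested.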

How the data were processed

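The deposited log2 ratios of sample to a common mixed-stage D. melanogaster reference were made by the authors, who scanned and quantified the arrays, removed failed spots and normalized each array by a loess over position and intensity, with no dye swap. The sample RNA went through 2 rounds of amplification and the reference through none. Array medians lay between -0.07 and 0.09. The number of arrays, not depth, limits precision. 1 D. sechellia larval column was deposited rounded.

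Each element is spotted in duplicate, and its 2 values were averaged. Of several elements of a gene the first was kept. Probes were named from the platform annotation (14966 with 1 symbol, 264 with several, 12418 not listed) or the authors' list. Arrays of a group whose duplicate-spot differences correlated above 0.5 were merged (7 pairs, r of 0.61 in hybrid adults and 0.93 to 0.97 in the species, against -0.03 to 0.04 in the others). Pure-species groups became 1 unit each, which with 11 hybrid units gave 23 units, 16 groups and 7 residual degrees of freedom. A hybrid adult mean rests on 2 units. Limma 3.58.1 (R 4.3.3) was fitted to all genes, so every p-value uses the spread of the hybrid pools. For 205 genes without hybrid values it uses the prior alone. The code was tested on simulated data.

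Members and lists were chosen with earlier results of these data known, and the functional groups were sorted by hand from the members. Named were the 20 members with the largest lead, those at the threshold, list members, members called between species and those not highest in hybrid early pupae. Others were named for a known function or a large difference to hybrid larvae. Sequences and promoter motifs were not analysed here.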

Additional observations from a re-analysis of the deposited data

How the results depend on the processing

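Membership was 108 genes, 27 with a lead of at least 1, 36 with a lead of 0.5 in each species, and 102 to 119 without 1 replicate of the species. With every array scaled to the same SD it was 93 genes, of which 90 were among the 108. The choice of members without a replicate or with equal SDs and the hybrid arrays unmerged with no block were added after seeing the data. Of the counts of members higher in hybrid early pupae, against larvae, late pupae, adults and all 3 stages (53, 85, 72 and 41), those of the 27 members were 22, 25, 23 and 20 and those of the 36 were 26, 34, 31 and 26. Equal SDs gave 43, 75, 68 and 32 for the 108 members. The t-test on the hybrid pools with p multiplied by 6 gave 28, 55, 31 and 10, and with Benjamini-Hochberg adjustment 8, 63, 29 and 4. The methods ran their t-tests on replicate spots and between consecutive stages only, so these counts are not those of the authors' procedure. Leaving out 1 replicate or 1 hybrid array gave 21 to 79, 47 to 91, 31 to 77 and 13 to 57. The lowest counts came without replicate 2 or 3 of all groups, which were 23, 47, 31 and 13 for replicate 3 left out and 21, 59, 65 and 16 for replicate 2. Of single hybrid arrays, larval replicate 1 left out gave 79 over larvae, larval replicate 2 gave 35 over larvae and 31 over all 3 stages, and early pupal replicates 1 and 2 gave 24 and 25 over all 3. With the replicate number as a block, on the 12 hybrid arrays alone, the counts were 60, 88, 76 and 45, and on the same arrays without it 55, 85, 74 and 44. Deviations of same-numbered pools correlated between -0.07 and 0.43 over all pairs of stages, above 0.1 in 11 of 18. Between early and late pupae they were above 0.1 in 3 of 3 (0.18 to 0.38), and between early pupae and larvae or adults in 2 of 3 each, so pairing is a hint from the data for the first and not shown for the others.

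Members called between species in larvae, early pupae, late pupae and adults and in the excess (0, 2, 0, 0 and 0) rose to 47, 61, 66, 47 and 51 with every technical array as a replicate. Merging no arrays gave 1 in larvae and 2 in late pupae, equal SDs gave 1, 1 and 3 at the first 3 stages, unnamed elements gave 1 in larvae, and the 27 and the 36 members each held 1 of the 2 early pupal calls. Leaving out 1 replicate or array gave 0 to 4, 0 to 9, 0 to 11, 0 to 3 and 0 to 1, and were 4, 9, 11, 1 and 0 without replicate 1 of all groups and 4, 6, 10, 3 and 1 without hybrid larval replicate 1.

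Of 146 calls of named members, 130 held with equal SDs and 144 to 146 with every array as a replicate, no merging, the mean of elements or unnamed elements. In the fits of hybrids alone, with and without the block, 144 of 144 held. Without replicate 3 of all groups 74 held, without replicate 2 107 and without replicate 1 135, and without 1 hybrid array 121 to 145. For the t-test only the counts above are given. Leaving out arrays turned the sign of uncalled early pupal differences to larvae, for RanBPM (-0.27 to 0.38), Pcif1 (-0.41 to 0.38), CG11089 (-0.35 to 0.40), Fbp1 (-0.17 to 0.49), Usp10 (-0.27 to 0.23), Atf6 (-0.028 to 0.77), CG31368 (-0.25 to 0.077) and cta (-0.084 to 0.76), and to late pupae for Snx3 (-0.14 to 0.46) and Toll-7 (-0.015 to 0.45), and for Snx3 to adults (-0.11 to 0.53). Equal SDs did so for RanBPM to larvae (-0.059) and Snx3 to late pupae (-0.024). The cause was not tested.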

Other observations

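The larval levels of the hybrids were also read in genes chosen on D. melanogaster alone, so that neither parent entered the choice. This comparison was added after the data were seen. Of 75 autosomal genes measured in the hybrids with a lead of 0.5 or more in D. melanogaster, 54 were members. Their median larval difference from the mean of the parents was 0.15 over all pools, 0.35 in replicate 1, 0.01 in replicate 2 and 0.12 in replicate 3, and 0.02 without replicate 1. Of the 75 genes 46.7% were above both parents in larvae, and 45.3% without replicate 1, beside 31.5% and 31.3% of all genes. In adults the median was 0.19, with 52% above both parents beside 38.6% of all genes, and pool medians of 0.20, 0.22 and 0.17.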
